A study of Mus musculus with 13 samples.

Results

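Tumour cells of 3 transplanted mouse myeloma lines that carry an activated Nras allele were compared with those of a transplanted line without that allele in its label, as an experiment of 7 of the 13 RNA-sequencing libraries of the series. The members were chosen from the sample labels, with earlier results of these data known. The 5 libraries called VQ came from recipients of the lines D1 (2 recipients), D4 (1 recipient) and D5 (2 recipients), with the genotype V{kappa}*MYC, Nras LSL Q61R/+ and IgG1-Cre. The 2 libraries called tVk12653 came from 2 recipients of a single line, for which the labels give the name tVk12653 and no genotype. All were labelled C57/BL6, and each library was made from 50000 bone marrow cells sorted as CD138-positive (syndecan-1, on the surface of plasma cells), B220-negative (absent from plasma cells) and CD45.2-positive (a leukocyte surface allele that marks donor cells). Both arms were from transplant recipients. Libraries of 3 wild-type mice (WT) and 3 mice with V{kappa}*MYC and IgG1-Cre (V) entered only the estimate of the spread and are quoted as a range where it helps. tVk12653 is 1 line, so the Nras allele cannot be told apart from any other difference between that line and the 3 VQ lines. Recipients of the same line share their tumour, and p-values therefore measure the spread between these samples.

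Multiple myeloma is a cancer of plasma cells, the antibody-secreting end stage of B cells. The V{kappa}*MYC transgene carries human MYC under immunoglobulin kappa control and is switched on by the mutation process of germinal centre B cells, and Cre from the IgG1 locus acts in B cells that switch to that isotype. LSL stands for a stop cassette flanked by loxP sites, which Cre removes. NRAS is a small GTPase that, when bound to GTP, activates RAF, MEK and ERK kinases and PI3K, and the Q61R change at codon 61 keeps it bound to GTP. ERK in turn induces its own inhibitors, the Sprouty, SPRED and DUSP proteins, and the ETS factors ETV4 and ETV5. MYC drives genes of ribosome and nucleotide synthesis.

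Total counts of the 7 libraries were 2880511 to 8512281, and mitochondrial genes held 1.77 to 2.49% of them. Recipients of the same line had Spearman correlations of 0.979 to 0.987 over the genes tested, D1 and D4 of 0.900, D1 or D4 and tVk12653 of 0.872 to 0.882, and D5 and tVk12653 of 0.786 to 0.792. D5 stood apart from the other VQ lines: the leading principal component of the 7 libraries held 52.6% of the variance and placed D5 at 99.6 and 96.8, D1 and D4 between -23.5 and -15.9, and tVk12653 at -66.9 and -68.5. Values below are counts-per-million values (CPM, on the scaled library size) for single libraries, given in the order of the replicate numbers, and 3 counts in a library equal 0.331 to 1.08 CPM. The sort markers were present but uneven. Sdc1 levels came to 927 and 857 CPM (D1), 1442 CPM (D4) and 368 and 423 CPM (D5), with tVk12653 at 531 and 1039 CPM. Sdc1 encodes CD138, and it did not pass the test between the arms (adjusted p = 0.768). For Ptprc, tVk12653 had 197 and 182 CPM, while D1 had 273 and 252, D4 1.70 and D5 1.87 and 6.66 CPM. Ptprc encodes CD45, and D4 and D5 were near 0 although the cells were sorted on CD45.2. Jchain, the joining chain of secreted IgM and IgA, lay at 45.0 to 1520.3 CPM in VQ and 3999 and 6707 in tVk12653, against 32909 to 64708 in WT and V.

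Between the arms, 712 of 11933 genes tested (5.97%) were higher in VQ and 500 (4.19%) were lower at an adjusted p under 0.05 (edgeR quasi-likelihood test, Benjamini-Hochberg adjustment). Here the unit of VQ is the line, with the counts of recipients of 1 line summed. Of these, 544 were at least 2-fold higher and 404 at least 2-fold lower. The 5 VQ libraries lay all above both tVk12653 libraries for 2007 genes (16.8%) and all below for 1934 (16.2%), and 703 of the genes called higher and 498 of those called lower were among them. The number of calls rested on counting the 2 recipients of tVk12653 as separate units. With their counts summed into 1 unit, 51 genes were higher and 102 lower, and 152 of the 1212 calls remained. Without recipient 1 of tVk12653 the counts were 64 and 136, and without recipient 2 they were 49 and 89. Without the D5 line 871 were higher and 861 lower, without D1 1136 and 867, and without D4 1177 and 725. The WT and V libraries mattered through the shared spread: without 1 of them the counts were 379 to 549 higher and 343 to 393 lower. Called genes kept their direction in each of these fits. Of 87 called genes that the naming rule picked, 24 were also called with tVk12653 as 1 unit, and these are identified below. The median log2 fold change over all genes tested was 0.18. Counts at an unadjusted p under 0.05 and by DESeq2, given below for some lists, stand against 2161 genes (18.1%) higher and 1312 (11%) lower at that unadjusted p, and 1190 (9.97%) higher and 931 (7.8%) lower by DESeq2, over all genes tested.

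Genes of the MYC network that passed were lower in VQ. Of its 12 genes tested, 4 were lower (Myc, Mycn, Mycl and Mga) and none higher, with a median log2 fold change of -0.85. At an unadjusted p under 0.05, 7 were lower (11% of all genes) and 0 higher (18.1%), and DESeq2 called 6 and 0. The levels of Myc were 903 and 698 CPM (D1), 1667 CPM (D4), 1361 and 1670.1 CPM (D5), and 8008 and 8160.2 CPM (tVk12653). Every VQ library was below both tVk12653 libraries, and the fitted difference was 5.996-fold lower in VQ (log2 fold change -2.58 ± 0.36, adjusted p = 0.00394). That call held with tVk12653 as 1 unit. Reads of the human transgene that were counted on the mouse gene cannot be separated here, and V libraries had up to 425 CPM. Mycn had 8.08 and 2.21 CPM in the D1 libraries, 8.09 CPM in the D4 library, 10.1 and 11.5 CPM in the D5 libraries and 46.5 and 54.8 CPM in tVk12653. MYCN is the neural paralog of MYC, and its RNA was 6.46-fold lower in VQ (log2 fold change -2.69 ± 0.49, adjusted p = 0.0109). Mga encodes a MAX partner that opposes MYC, and it stood at 208 to 279.8 CPM in VQ and 474 and 491 in tVk12653 (log2 fold change -0.98 ± 0.17, adjusted p = 0.00956). Mycl, another MYC paralog, was low throughout, at 0 to 1.21 CPM in VQ and 5.09 and 7.57 in tVk12653 (log2 fold change -3.82 ± 1.02, adjusted p = 0.0433). Pvt1, a non-coding RNA gene 52.6 kb from the start of Myc and picked after its values were seen, had no count in either tVk12653 library and 2.05 to 10.8 CPM in VQ (at least 8.94-fold higher in VQ, adjusted p = 0.00602).

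Genes of ribosome biogenesis and nucleotide synthesis, which MYC is known to drive, were higher in VQ for those that passed. Of 32 tested, 7 were higher in VQ (Bop1, Gnl3, Nop58, Srm, Dkc1, Wdr43 and Nolc1) and none lower, with a median log2 fold change of 0.94. At an unadjusted p under 0.05, 19 were higher (18.1% of all genes) and 1 lower (11%), and DESeq2 called 12 and 0. Gnl3 levels came to 357 and 374 CPM (D1), 253 CPM (D4) and 622 and 554 CPM (D5), with tVk12653 at 146 and 164 CPM. GNL3 is a nucleolar GTPase, and its RNA was 2.70-fold higher in VQ (log2 fold change 1.43 ± 0.33, adjusted p = 0.025). Bop1, which acts in processing of the large ribosomal subunit's RNA, lay at 107 to 203 CPM in VQ and 76.8 and 77.3 in tVk12653 (log2 fold change 1.06 ± 0.24, adjusted p = 0.0234), and Nop58, a core protein of the particles that methylate ribosomal RNA, at 297 to 604 CPM in VQ and 173 and 177 in tVk12653 (log2 fold change 1.26 ± 0.29, adjusted p = 0.0251). All libraries of VQ were above both of tVk12653 for these 3 genes. None of the 7 calls held with tVk12653 as 1 unit. By line against tVk12653, 18 of the list were higher and 2 lower for D1, 9 and 3 for D4, and 27 and 1 for D5. Over all genes, 13.9% were higher and 14.4% lower for D1, 14.1% and 11.8% for D4, and 25.7% and 24.3% for D5.

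Nras itself did not pass between the arms. For Nras, tVk12653 had 54.1 and 46.5 CPM, while D1 had 45.5 and 42.4, D4 59.9 and D5 133 and 163 CPM. The 2 D5 libraries were the highest and the other VQ libraries overlapped tVk12653 (log2 fold change 0.79 ± 0.45, adjusted p = 0.269 for the arms). Gene counts do not tell the mutant from the normal Nras allele. In D5 the genes of chromosome 3, which holds Nras, had a median log2 fold change against tVk12653 of 0.40 above that of all genes. Hras, which encodes a related GTPase, lay at 40.6 to 79.2 CPM in VQ and 72.5 and 78.9 in tVk12653 and did not pass (log2 fold change -0.39 ± 0.28, adjusted p = 0.382). Of 28 genes of RAS proteins, RAF kinases, exchange factors and RAS inhibitors, 4 were higher (Rasa3, Map2k2, Spred1 and Dab2ip) and 3 lower (Rras2, Rasal1 and Rras), with a median log2 fold change of 0.06. The levels of Rasa3 were 115 and 104 CPM (D1), 155 CPM (D4), 223 and 215 CPM (D5), and 47.9 and 39.3 CPM (tVk12653). RASA3 switches off RAS by promoting GTP hydrolysis, and its RNA was 3.80-fold higher in VQ (log2 fold change 1.93 ± 0.29, adjusted p = 0.00495). Rasal1, which encodes another such protein, went the other way at 1.60 to 8.39 CPM in VQ and 20.9 and 23.6 in tVk12653 (log2 fold change -2.39 ± 0.48, adjusted p = 0.0152). Rras2, a RAS relative, had 3 counts over the 5 VQ libraries and 5.78 and 3.60 CPM in tVk12653 (adjusted p = 0.00197), and its call held with tVk12653 as 1 unit.

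**Figure D1:**
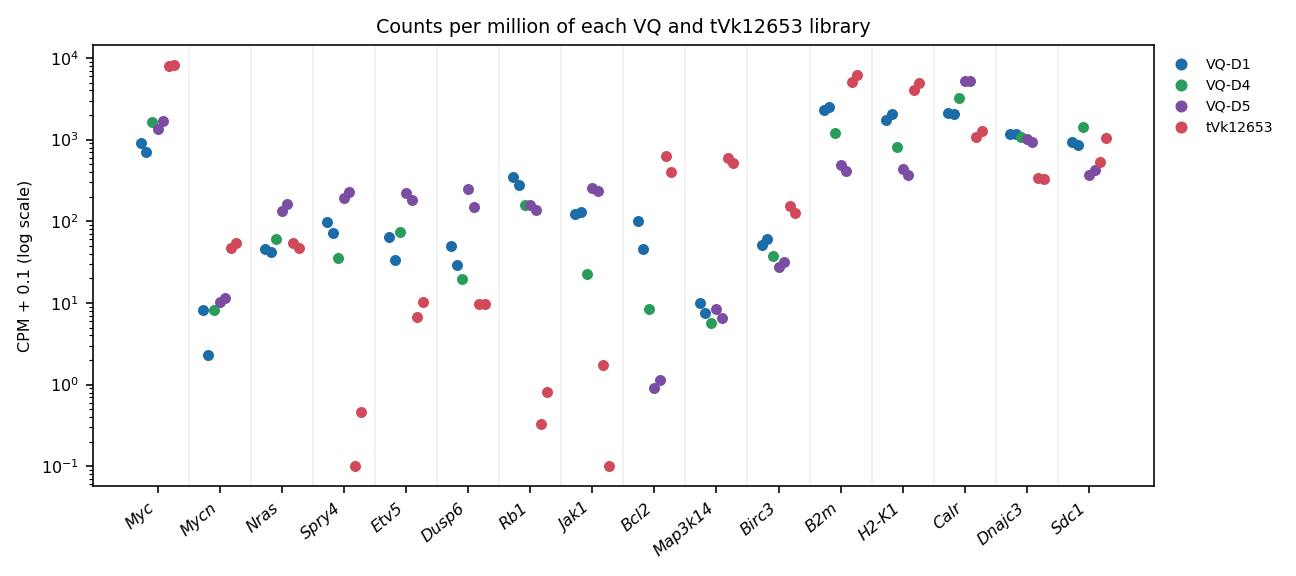
CPM of 16 genes (x axis) in each of the 7 libraries on a log scale (y axis, a small constant added so that zeros are drawn), with 1 point per library coloured by line. For Myc the tVk12653 points lie at 8008 and 8160 CPM above all VQ points, and for Spry4, Rb1 and Jak1 they lie near 0.

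Feedback inhibitors and nuclear targets of ERK were higher in VQ for those that passed, apart from Myc, which is on the second of these lists. Of 9 feedback inhibitors tested, 3 were higher (Spry4, Dusp7 and Spred1) and none lower, and the median log2 fold change was 1.95. At an unadjusted p under 0.05, 6 were higher (18.1% of all genes) and 0 lower (11%), and DESeq2 called 5 and 0. By line against tVk12653 the median was 0.84 (D1), 1.15 (D4) and 1.72 (D5). In D1 3 of the list were called higher (13.9% of all genes) and 1 lower (14.4%). In D4 5 were higher (14.1%) and 0 lower (11.8%), and in D5 5 (25.7%) and 2 (24.3%). Spry4 had 97.0 and 71.2 CPM in the D1 libraries, 35.1 CPM in the D4 library, 195 and 228 CPM in the D5 libraries and 0 and 0.36 CPM in tVk12653. Spry4, a Sprouty inhibitor of receptor signalling to RAS, had 1 count in tVk12653 as a whole (a ratio of 783 with a 95% counting interval of 141 to 30929.5, adjusted p = 0.00524). Dusp7 levels came to 39.9 and 40.5 CPM (D1), 60.6 CPM (D4) and 168 and 145 CPM (D5), with tVk12653 at 22.7 and 23.4 CPM. DUSP7 is a phosphatase of ERK, and its RNA was 3.86-fold higher in VQ (log2 fold change 1.95 ± 0.52, adjusted p = 0.0431). WT and V held 39.8 to 58.8 CPM of Dusp7, so D1 was within that range, D4 and D5 above it and tVk12653 below it. For Dusp6, tVk12653 had 9.72 and 9.73 CPM, while D1 had 50.4 and 29.3, D4 19.6 and D5 248 and 148 CPM. Dusp6, the best known ERK phosphatase of the group, was above tVk12653 in all 5 VQ libraries but did not pass (log2 fold change 3.18 ± 0.95, adjusted p = 0.0608). Its level in WT and V was 11.4 to 41.2 CPM. Without the D1 line, without the D4 line or with DESeq2, Dusp6 passed.

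Of 15 ERK-induced factors and other outputs, 3 were higher (Egr1, Etv4 and Etv5) and 1 lower (Myc), with a median log2 fold change of 2.70. At an unadjusted p under 0.05, 6 were higher (18.1% of all genes) and 2 lower (11%), and DESeq2 called 6 and 2. The lines were unlike, with a median against tVk12653 of 0.83 (D1), 3.07 (D4) and 0 (D5). In D1 4 of the list were called higher (13.9% of all genes) and 1 lower (14.4%). In D4 6 were higher (14.1%) and 1 lower (11.8%), and in D5 6 (25.7%) and 3 (24.3%). The levels of Etv5 were 64.4 and 33.6 CPM (D1), 74.6 CPM (D4), 223 and 179.7 CPM (D5), and 6.71 and 10.1 CPM (tVk12653). Each VQ library exceeded both tVk12653 libraries (log2 fold change 3.72 ± 0.65, adjusted p = 0.0096). Etv4 had 15.4 and 6.96 CPM in the D1 libraries, 13.9 CPM in the D4 library, 35.2 and 43.8 CPM in the D5 libraries and 0.23 and 0.72 CPM in tVk12653. Etv4 had 3 counts over the 2 tVk12653 libraries (a ratio of 50.9 with a 95% counting interval of 17.4 to 247, adjusted p = 0.0184). Egr1, an immediate early gene, had 2 counts in tVk12653 and 30.9 to 435 CPM in VQ (a ratio of 760.4 with a 95% counting interval of 210.5 to 6279, adjusted p = 0.00598), and WT and V libraries held 82.7 to 1048 CPM. For Spry4 and Etv4 the WT and V libraries reached at most 1.45 and 0.57 CPM, and for Etv5 8.56 to 12.7 CPM. No call of the 2 ERK lists in the higher direction held with tVk12653 as 1 unit. The lines differed in Spred1, which stood at 1.08 and 0.33 CPM (D1), 70.8 CPM (D4), 159 and 170 CPM (D5), and 0.23 and 0.36 CPM (tVk12653). D1 was thus near the tVk12653 level, and without D5 the call was lost.

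The 10 largest fitted log2 fold changes in each direction, among genes that the naming rule allowed and whose libraries did not overlap, were genes with 0 to 3 counts, or 1.6 CPM at most, in the lower arm. For genes without a count in 1 arm the fitted value depends on the fit, so the rank is not one of the bounds given below. Spry4 and Egr1, with 1 and 2 counts in tVk12653 and ratios of 783 and 760.4, ranked below the 10. On the higher side these were Syndig1l, Kif19a, Lamb1, Gng12, Fyn, Sfmbt2, Cd63, Hpse, Nes and Dnajc15, each without a count in either tVk12653 library. Kif19a levels came to 26.1 and 37.8 CPM (D1), 27.0 CPM (D4) and 30.7 and 28.2 CPM (D5), with tVk12653 at 0 and 0 CPM. Kif19a, a kinesin motor protein gene, was even across the VQ libraries (at least 33.2-fold higher in VQ, adjusted p = 0.000132), and WT and V had 23.9 to 41.6 CPM. For Gng12, tVk12653 had 0 and 0 CPM, while D1 had 44.7 and 54.3, D4 15.8 and D5 11.5 and 13.1 CPM. GNG12 is a gamma subunit of heterotrimeric G proteins, and its RNA was at least 29.1-fold higher in VQ (adjusted p = 0.00391). The levels of Lamb1 were 207 and 126 CPM (D1), 350.2 CPM (D4), 46.7 and 31.3 CPM (D5), and 0 and 0 CPM (tVk12653). Lamb1, a laminin chain gene, was at least 209-fold higher in VQ (adjusted p = 0.00448), and here WT and V held at most 1.04 CPM. The calls of Kif19a, Gng12, Lamb1 and Dnajc15 held with tVk12653 as 1 unit. Fyn, a SRC family kinase gene, ranged within VQ from 4.20 CPM in D1 to 747 in D5 (at least 314-fold higher in VQ, adjusted p = 0.0297). Nes, which encodes the intermediate filament protein nestin, ranged from 33.2 CPM in D1 to 851 in D5 (at least 379-fold higher in VQ, adjusted p = 0.0147). Hpse, the heparanase that cleaves the side chains of syndecan-1, lay between 3.77 CPM in D1 and 102 in D5 (at least 38.2-fold higher in VQ, adjusted p = 0.0382).

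On the lower side these included Acvr1, Kcnc2, Maoa, Cd109, Hoxa7, Rfx6, Gpr158, Nt5el and Igsf10. H2-M10.1, a class Ib heavy chain gene, was not eligible, because the exclusion of histone names also removed symbols that begin with H2-. It had 3 counts in VQ (a ratio of 4073 with a 95% counting interval of 1394 to 19751, adjusted p = 0.00103). Rfx6 had 0 and 0 CPM in the D1 libraries, 0 CPM in the D4 library, 0 and 0 CPM in the D5 libraries and 183 and 156 CPM in tVk12653. Rfx6, a transcription factor gene of the endocrine pancreas, had no count in VQ (at least 286-fold lower in VQ, adjusted p = 0.000584). Igsf10 levels came to 0.27 and 0 CPM (D1), 0.14 CPM (D4) and 1.60 and 1.28 CPM (D5), with tVk12653 at 303 and 310.0 CPM. Igsf10, an immunoglobulin superfamily gene, was 557-fold lower in VQ (log2 fold change -9.12 ± 0.81, adjusted p = 0.000315). Gpr158, an orphan receptor gene, stood at 171 and 160.0 CPM in tVk12653 with 2 counts over the 5 VQ libraries (a ratio of 2273 with a 95% counting interval of 629 to 18766, adjusted p = 0.00045). Cd109, a surface co-receptor of TGF-beta, stood at 66.6 and 119 CPM with 3 counts in VQ (a ratio of 849 with a 95% counting interval of 291 to 4119, adjusted p = 0.000315). For Hoxa7, tVk12653 had 65.3 and 78.2 CPM, while D1 had 0.27 and 0, D4 0 and D5 0.27 and 0.51 CPM. Hoxa7, a homeobox gene, was 397-fold lower in VQ (log2 fold change -8.63 ± 0.64, adjusted p = 0.000134), and WT and V held 6.15 to 21.5 CPM. For Rfx6, Gpr158, Igsf10, Cd109, Kcnc2 and Nt5el the WT and V libraries held at most 1.96 CPM, so these RNAs were seen above that level only in tVk12653. The calls of Kcnc2, Maoa, Cd109, Hoxa7, Rfx6, Gpr158 and Igsf10 held with tVk12653 as 1 unit.

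Cell cycle genes seldom passed, and Rb1 was the clearest of those that did. Of 28 proliferation genes and 28 DNA replication genes tested, none passed in either direction by edgeR, 5 and 4 had an unadjusted p under 0.05, all higher in VQ, where 18.1% of all genes did, and DESeq2 called 1 and 2 of them higher. The medians were 1.03 and 0.74, and 23 and 24 of the genes differed among the VQ lines (F test), where 51.4% of all genes did. For the proliferation list the median log2 fold change against tVk12653 was 0.44 (D1), -0.19 (D4) and 1.89 (D5). The levels of Mki67 were 2587 and 3492 CPM (D1), 1289 CPM (D4), 3688 and 3047 CPM (D5), and 1977 and 2359 CPM (tVk12653). Mki67, which encodes the Ki-67 protein of dividing cells, overlapped between the arms (log2 fold change 0.33 ± 0.50, adjusted p = 0.691). Among 21 genes of D cyclins, CDK inhibitors and RB proteins, 2 were higher (Rb1 and E2f3) and 2 lower (Cdkn1b and Cdkn2b). Cdkn1b had 101 and 97.4 CPM in the D1 libraries, 75.1 CPM in the D4 library, 77.9 and 57.9 CPM in the D5 libraries and 200.4 and 172 CPM in tVk12653. CDKN1B, or p27, inhibits cyclin-dependent kinases, and its RNA was 2.25-fold lower in VQ (log2 fold change -1.17 ± 0.19, adjusted p = 0.00752), a call that held with tVk12653 as 1 unit. Cdkn2b, which encodes the CDK4 and CDK6 inhibitor p15, lay at 0 to 0.66 CPM in VQ and 5.78 and 7.57 in tVk12653 (log2 fold change -4.92 ± 0.96, adjusted p = 0.0142). The D cyclins did not pass: Ccnd2 lay at 29.1 to 3401 CPM in VQ and 1739 and 2296 in tVk12653 (log2 fold change 0.12 ± 1.17, adjusted p = 0.959), and Ccnd3 at 28.2 to 34.8 CPM in VQ and 39.3 and 48.3 in tVk12653 (log2 fold change -0.45 ± 0.28, adjusted p = 0.317). Ccnd1 levels came to 0.27 and 0.22 CPM (D1), 16.0 CPM (D4) and 53.1 and 37.2 CPM (D5), with tVk12653 at 0.23 and 0.72 CPM. Ccnd1 was thus present in D4 and D5 and near the floor in D1 and tVk12653 (adjusted p = 0.136 for the arms), and it passed without the D1 line.

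Rb1 encodes the retinoblastoma protein, which restrains entry into the cell cycle. For Rb1, tVk12653 had 0.23 and 0.72 CPM, while D1 had 347 and 279, D4 159.5 and D5 157 and 136 CPM. The tVk12653 libraries held 3 counts in all (a ratio of 488 with a 95% counting interval of 167 to 2365, adjusted p = 7.36e-05), WT and V libraries held 119 to 156 CPM, and the call held with tVk12653 as 1 unit. Rb1 lies at GRCm38.p6 chr14:73192858-73325951, and Lpar6, the gene of a lysophosphatidic acid receptor, lies within that span at chr14:73237891-73240358, so that reads of the overlap could be counted on either. Their neighbours were examined after these values were seen. The levels of Lpar6 were 14.8 and 26.3 CPM (D1), 4.40 CPM (D4), 30.2 and 19.0 CPM (D5), and 0 and 0 CPM (tVk12653). Rcbtb2 had 213 and 225 CPM in the D1 libraries, 105 CPM in the D4 library, 68.1 and 71.8 CPM in the D5 libraries and 1.16 and 0.36 CPM in tVk12653. Rcbtb2 (chr14:73138745-73184055) is the next expressed gene on the other side of Rb1, 54.1 kb away by start, and its RNA was 159-fold higher in VQ (log2 fold change 7.31 ± 0.69, adjusted p = 0.000445). The expressed genes beyond these 3 were present in tVk12653. Cysltr2 levels came to 6.73 and 3.09 CPM (D1), 1.14 CPM (D4) and 2.94 and 5.90 CPM (D5), with tVk12653 at 4.16 and 8.29 CPM. For Itm2b, tVk12653 had 4412 and 7041 CPM, while D1 had 5357 and 4172, D4 2799.7 and D5 1097 and 1046 CPM. Med4 stood at 28.5 to 45.3 CPM in VQ and 29.2 and 34.96 in tVk12653 and Sucla2 at 45.8 to 65.9 CPM in VQ and 20.8 and 21.99 in tVk12653, and Sucla2 was called higher in VQ (log2 fold change 1.41 ± 0.20, adjusted p = 0.00396). The run of near-absent RNA in tVk12653 thus covered Rcbtb2, Rb1 and Lpar6, between Cysltr2 and Itm2b. DNA was not analysed here.

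**Figure D2:**
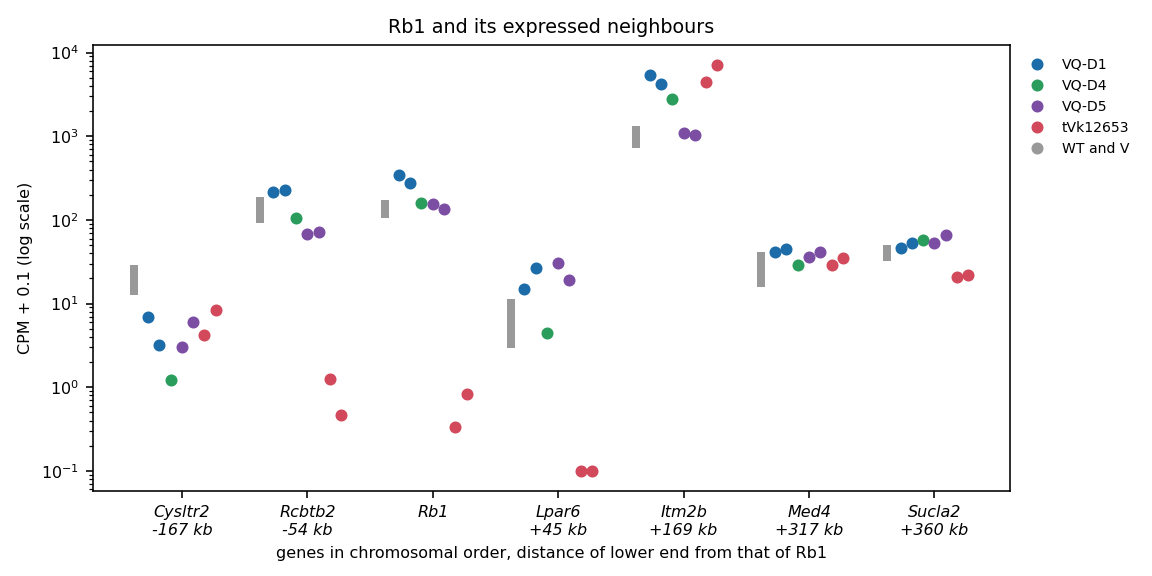
Expressed genes within 500 kb of the start of Rb1 in chromosomal order (x axis, with the distance of each gene's lower end from that of Rb1) and their CPM on a log scale (y axis, a small constant added). Points are the 7 libraries and grey bars the range of the 6 WT and V libraries, and the tVk12653 points fall to near 0 for Rcbtb2, Rb1 and Lpar6 only.

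Differences between the arms were unevenly spread over the chromosomes. Of 375 genes tested on chromosome 14, 124 (33.1%) were higher in VQ and 3 (0.80%) lower, against 5.97% and 4.19% over all genes. Chromosome 7 had the opposite balance, with 13 of 911 genes (1.43%) higher and 143 (15.7%) lower. Chromosomes 4 and 10 had 12.6% and 12.8% of their genes called higher. Relative to the median of all genes, the median log2 fold change on chromosome 14 was 0.88 (D1), 0.79 (D4) and 0.71 (D5), and on chromosome 7 it was -0.62, -0.63 and -0.90. Set against the mean of WT and V, the chromosome 14 median was -0.74 and -0.78 in the tVk12653 libraries and between -0.06 and 0.07 in the 5 VQ libraries, and the chromosome 7 median was 0.75 in both tVk12653 libraries and between -0.13 and 0.12 in VQ. Other chromosomes set the VQ lines apart by the same measure. Chromosome 5 stood at -0.73 and -0.78 in D1 and -0.88 in D4 but at 0.06 and 0.08 in D5. Chromosome 8 stood at -0.71 and -0.76 in D1 and -0.72 and -0.73 in tVk12653, and between -0.06 and 0.01 in D4 and D5. Chromosome 15, which holds Myc, stood at 0.68 in D4 and between 0.09 and 0.19 in the others, and chromosome 3, which holds Nras, at 0.53 and 0.51 in D5 and between 0.04 and 0.14 in the others. Genes of a chromosome are not independent replicates, and these medians carry no test.

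**Figure D3:**
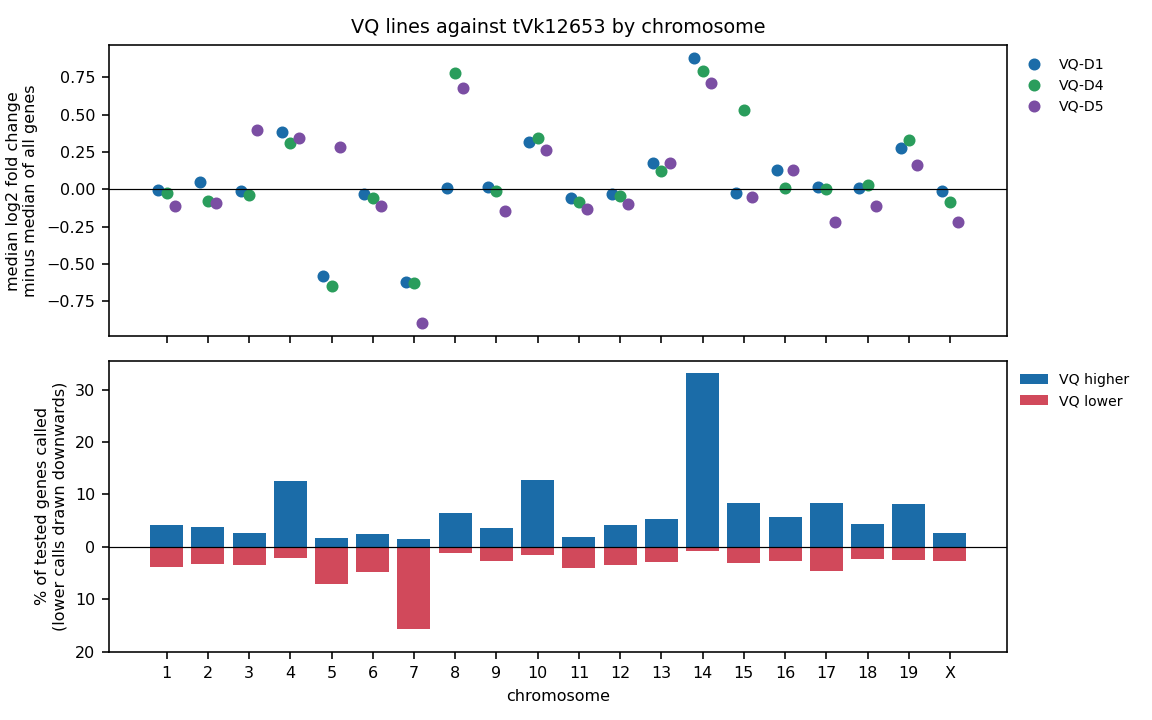
Upper panel: median log2 fold change of each VQ line against tVk12653 by chromosome (x axis), minus the median of all genes. Lower panel: percent of the tested genes of each chromosome called higher (blue) or lower (red, drawn downwards) in VQ, with 33.1% higher on chromosome 14 and 15.7% lower on chromosome 7.

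The main transcription factors of plasma cells were abundant in both arms and did not pass. Irf4 lay at 1522 to 2442 CPM in VQ and 1516 and 1831 in tVk12653 (log2 fold change 0.36 ± 0.27, adjusted p = 0.403), Prdm1, which encodes BLIMP1, at 216 to 638 CPM in VQ and 503 and 701 in tVk12653 (log2 fold change -0.64 ± 0.44, adjusted p = 0.36) and Xbp1 at 1331 to 3425 CPM in VQ and 1733 and 1800.4 in tVk12653 (log2 fold change 0.34 ± 0.33, adjusted p = 0.514). Of 18 plasma cell and B cell transcription factors, 1 was higher (Foxo1, log2 fold change 1.79 ± 0.45, adjusted p = 0.0356) and 1 lower (Pou2af1, the OCT coactivator OBF1, log2 fold change -0.97 ± 0.27, adjusted p = 0.0493). Of 21 secretory and surface genes, 3 were higher (Fkbp11, Cd28 and Slamf7) and none lower. The levels of Fkbp11 were 269 and 236 CPM (D1), 810.5 CPM (D4), 619 and 651 CPM (D5), and 97.9 and 96.6 CPM (tVk12653). FKBP11 is a prolyl isomerase of the secretory pathway, and its RNA was 5.93-fold higher in VQ (log2 fold change 2.57 ± 0.42, adjusted p = 0.00752). Cd28 had 73.8 and 35.3 CPM in the D1 libraries, 29.7 CPM in the D4 library, 43.8 and 45.1 CPM in the D5 libraries and 7.87 and 2.16 CPM in tVk12653. CD28 is a costimulatory receptor that plasma cells also carry, and its RNA was 7.91-fold higher in VQ (log2 fold change 2.98 ± 0.49, adjusted p = 0.0076), a call that held with tVk12653 as 1 unit. Slamf7, a myeloma surface protein gene, lay at 377 to 603 CPM in VQ and 245 and 283 in tVk12653 (log2 fold change 0.84 ± 0.21, adjusted p = 0.0373). Of 18 genes of B cell receptor signalling, only Lyn, a SRC family kinase gene, passed (log2 fold change 1.26 ± 0.35, adjusted p = 0.0498), and it did not pass with relative log expression scaling.

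Endoplasmic reticulum chaperone genes that passed were higher in VQ. Of 22 genes of the unfolded protein response, by which cells adapt their folding capacity, 6 were higher (Dnajc3, Hyou1, Calr, Pdia6, Dnajb11 and Pdia3) and none lower, with a median log2 fold change of 0.51. At an unadjusted p under 0.05, 12 were higher (18.1% of all genes) and 2 lower (11%), and DESeq2 called 9 and 2. The list summed to 36377 and 37019 CPM (D1), 35268 CPM (D4), 43026 and 43229 CPM (D5), and 30837 and 34174 CPM (tVk12653). WT and V held 26593 to 41902.5 CPM, so only D5 was outside that range. Dnajc3 levels came to 1168 and 1188 CPM (D1), 1073 CPM (D4) and 1020.3 and 930.3 CPM (D5), with tVk12653 at 339 and 330.2 CPM. Dnajc3 encodes p58IPK, an inhibitor of the stress kinase PERK (log2 fold change 1.72 ± 0.19, adjusted p = 0.00112), and its call held with tVk12653 as 1 unit. Dnajc3 lies on chromosome 14, and WT and V held 664 to 1010 CPM of it, above tVk12653. For Calr, tVk12653 had 1064 and 1289 CPM, while D1 had 2110.4 and 2034, D4 3232 and D5 5242 and 5296 CPM. Calreticulin, a lectin chaperone that binds calcium, was thus graded over the lines (log2 fold change 1.63 ± 0.35, adjusted p = 0.0202). WT and V held 2485 to 3601 CPM of Calr, with D1 and tVk12653 below that range, D4 within it and D5 above it. The levels of Hyou1 were 1098 and 1131 CPM (D1), 949 CPM (D4), 1334 and 1359 CPM (D5), and 549.5 and 563 CPM (tVk12653). HYOU1 is a large HSP70-type chaperone (log2 fold change 1.08 ± 0.20, adjusted p = 0.0113). Pdia6, a protein disulfide isomerase gene outside the naming rule and picked for its promoter, lay at 1348 to 2767 CPM in VQ and 655 and 825 in tVk12653 (log2 fold change 1.37 ± 0.32, adjusted p = 0.0277). Hspa5, the gene of the master chaperone BiP, had 2891 to 4847 CPM in VQ and 2047 and 2110.1 in tVk12653 and did not pass (log2 fold change 0.84 ± 0.25, adjusted p = 0.057).

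The chaperone promoters are shown because the members that moved together include several with the endoplasmic reticulum stress element, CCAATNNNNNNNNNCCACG, the element that ATF6 and XBP1 are known to use. It was sought on both strands in the 250 bases before each RefSeq gene start (GRCm38.p6), where 0.113% of 32851 promoters held it. Of the 18 listed genes that matched a promoter, 7 held it: Hspa5, Hsp90b1, Calr, Canx, Pdia6, Dnajc3 and Syvn1. Of the 6 genes called higher, 5 matched and 3 held it. Those 3 are printed 5′ to 3′ on the gene's strand with the element, on either strand, in capitals. The Calr window is chr8:84846932-84847181 (minus strand), that of Pdia6 chr12:17266339-17266588 (plus strand) and that of Dnajc3 chr14:118937682-118937931 (plus strand). A match is a description of the letters in the window, not evidence that a factor was bound there.
Calr: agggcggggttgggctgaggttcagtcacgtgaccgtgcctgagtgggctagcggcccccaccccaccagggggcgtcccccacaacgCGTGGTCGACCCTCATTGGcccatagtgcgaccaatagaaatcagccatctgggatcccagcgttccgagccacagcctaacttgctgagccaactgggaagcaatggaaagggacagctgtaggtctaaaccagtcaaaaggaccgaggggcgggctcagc
Pdia6: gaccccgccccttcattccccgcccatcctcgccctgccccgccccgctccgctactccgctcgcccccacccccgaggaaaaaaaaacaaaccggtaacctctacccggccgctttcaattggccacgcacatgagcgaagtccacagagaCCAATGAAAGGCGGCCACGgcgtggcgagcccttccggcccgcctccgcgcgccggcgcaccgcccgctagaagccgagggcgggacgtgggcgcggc
Dnajc3: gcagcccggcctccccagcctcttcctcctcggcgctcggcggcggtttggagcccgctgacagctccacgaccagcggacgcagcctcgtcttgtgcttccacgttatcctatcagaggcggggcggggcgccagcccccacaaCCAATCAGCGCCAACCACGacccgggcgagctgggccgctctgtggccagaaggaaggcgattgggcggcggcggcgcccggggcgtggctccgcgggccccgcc

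MHC class I molecules present peptides on the cell surface, and those of their genes that passed were lower in VQ. Of 15 genes tested, 7 were lower (H2-Q4, H2-Q7, H2-M3, H2-D1, H2-K1, B2m and Tap2) and none higher, and the median log2 fold change was -1.11. At an unadjusted p under 0.05 there were 9 lower (11% of all genes) and 0 higher (18.1%), and DESeq2 also called 7 lower and 0 higher. The list summed to 7703 and 8690 CPM (D1), 4796 CPM (D4), 2651 and 2407 CPM (D5), and 15437 and 19603 CPM (tVk12653). WT and V held 6308 to 10766 CPM, so D1 was within that range, D4 and D5 below it and tVk12653 above it. B2m had 2285 and 2517 CPM in the D1 libraries, 1217 CPM in the D4 library, 484 and 417 CPM in the D5 libraries and 5014 and 6249 CPM in tVk12653. B2m encodes beta-2 microglobulin, the light chain shared by class I molecules, and its RNA was 4.02-fold lower in VQ (log2 fold change -2.01 ± 0.51, adjusted p = 0.0382). H2-K1 levels came to 1745 and 2039 CPM (D1), 812 CPM (D4) and 438 and 373 CPM (D5), with tVk12653 at 4002 and 4899 CPM. For H2-D1, tVk12653 had 3396 and 4543 CPM, while D1 had 1393 and 1530.1, D4 1323 and D5 531 and 456 CPM. H2-K1 and H2-D1 encode the classical heavy chains of these mice, and their differences were log2 fold change -2.04 ± 0.49, adjusted p = 0.0295 and log2 fold change -1.82 ± 0.37, adjusted p = 0.0163. The levels of H2-Q4 were 70.8 and 70.9 CPM (D1), 41.2 CPM (D4), 39.2 and 35.9 CPM (D5), and 230.0 and 299 CPM (tVk12653). For H2-Q4, a non-classical heavy chain gene, the difference was log2 fold change -2.37 ± 0.32, adjusted p = 0.00347, and it alone of the list held with tVk12653 as 1 unit. H2-Q7 lay at 60.7 to 134 CPM in VQ and 366 and 451 in tVk12653 (log2 fold change -2.21 ± 0.37, adjusted p = 0.00799) and H2-M3, which presents formylated peptides, at 31.0 to 60.9 CPM in VQ and 94.6 and 128 in tVk12653 (log2 fold change -1.11 ± 0.23, adjusted p = 0.0162). Tap2, a subunit of the peptide transporter, lay at 82.0 to 250.1 CPM in VQ and 334 and 367 in tVk12653 (log2 fold change -1.21 ± 0.33, adjusted p = 0.0457). B2m, H2-K1, H2-D1 and Tap2 were named after their values were seen. Heavy chain genes are near-identical, and how reads that fit several of them were counted is not given in the sources used here, so the split among them is uncertain. B2m, on chromosome 2, has no such copy. B2m and the classical heavy chains were lowest in D5, where B2m stood at 484 and 417 CPM.

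The class I promoters are shown because 6 of the 13 listed genes that matched a RefSeq promoter held an NF-kB motif, written GGGANNNNCC, in the 250 bases before the start: B2m, H2-K1, H2-D1, H2-Q4, H2-Q7 and H2-M3. These are the 6 of the 7 genes called lower that matched a promoter. Of all 32851 promoters 17.6% held the motif. In the 4 windows printed below, 5′ to 3′ on the gene's strand, the capitals mark the motif, and matches that overlap on both strands are merged into 1 run. They lie at chr2:122147437-122147686 (B2m, plus strand), chr17:34000348-34000597 (H2-K1, minus strand), chr17:35262844-35263093 (H2-D1, plus strand) and chr17:35379367-35379616 (H2-Q4, plus strand). For the ribosome biogenesis and nucleotide synthesis list, the same 250 bases were searched for the E-box CACGTG. Of its 26 genes that matched a promoter 5 held it, as did 6.02% of all promoters. Of its 7 genes called higher, 5 matched and 0 held it. Nothing about binding follows from a match.
B2m: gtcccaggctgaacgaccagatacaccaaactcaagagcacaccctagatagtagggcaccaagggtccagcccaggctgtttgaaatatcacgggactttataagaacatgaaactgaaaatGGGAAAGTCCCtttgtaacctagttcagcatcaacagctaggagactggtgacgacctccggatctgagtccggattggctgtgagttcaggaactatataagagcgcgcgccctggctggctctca
H2-K1: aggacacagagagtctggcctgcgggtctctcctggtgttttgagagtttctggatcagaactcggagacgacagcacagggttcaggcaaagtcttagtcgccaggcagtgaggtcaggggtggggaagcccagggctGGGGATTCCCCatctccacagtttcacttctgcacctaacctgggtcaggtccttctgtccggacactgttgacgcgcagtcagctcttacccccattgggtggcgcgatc
H2-D1: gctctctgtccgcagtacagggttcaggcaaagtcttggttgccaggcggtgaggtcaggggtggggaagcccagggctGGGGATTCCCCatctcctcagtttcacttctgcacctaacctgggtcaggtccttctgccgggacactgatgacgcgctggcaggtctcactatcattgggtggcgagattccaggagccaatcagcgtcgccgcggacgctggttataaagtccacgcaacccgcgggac
H2-Q4: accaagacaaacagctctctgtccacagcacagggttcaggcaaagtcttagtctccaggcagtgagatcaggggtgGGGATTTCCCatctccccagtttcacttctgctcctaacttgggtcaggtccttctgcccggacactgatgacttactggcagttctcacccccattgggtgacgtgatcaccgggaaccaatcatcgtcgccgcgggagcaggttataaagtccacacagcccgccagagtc

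Of 18 NF-kB factors and targets, 2 were lower in VQ (Map3k14 and Birc3), none higher, and the median log2 fold change was -0.91. At an unadjusted p under 0.05, 6 were lower (11% of all genes) and 0 higher (18.1%), and DESeq2 called 4 and 0. Map3k14 had 9.97 and 7.51 CPM in the D1 libraries, 5.53 CPM in the D4 library, 8.28 and 6.41 CPM in the D5 libraries and 593 and 519 CPM in tVk12653. MAP3K14, or NIK, is the kinase that starts the non-canonical NF-kB pathway. All 5 VQ libraries were within a narrow range, WT and V held 19.6 to 32.5 CPM, and the difference was 76.1-fold lower in VQ (log2 fold change -6.25 ± 0.27, adjusted p = 6.26e-06). The F test among the lines did not pass (adjusted p = 0.262). Genes next to Map3k14 (chr11:103219764-103267401) differed less. Within 500 kb only Hexim2 was also called lower in VQ, at 3.85 to 9.51 CPM in VQ and 20.9 and 24.8 in tVk12653. Plcd3, Acbd4 and Hexim1, in a row with Hexim2, were below both tVk12653 libraries in every VQ library. They did not pass (adjusted p = 0.0512, 0.053 and 0.154). Plcd3 lay at 8.62 to 57.1 CPM in VQ and 105 and 212 in tVk12653. Eftud2 was above both in every VQ library without passing, and the other expressed genes overlapped. Birc3 levels came to 50.9 and 60.3 CPM (D1), 37.0 CPM (D4) and 27.5 and 31.8 CPM (D5), with tVk12653 at 153 and 127 CPM. BIRC3, or cIAP2, is a target of NF-kB and a part of the complex that degrades NIK, and its RNA was 3.29-fold lower in VQ (log2 fold change -1.72 ± 0.25, adjusted p = 0.00448). Both calls held with tVk12653 as 1 unit. Nfkb2, the precursor of the p52 subunit, ranged from 8.72 CPM in D5 to 192 in a tVk12653 library and did not pass (log2 fold change -2.16 ± 0.70, adjusted p = 0.0784), and neither did Traf3, another part of the NIK-degrading complex (log2 fold change -0.08 ± 0.27, adjusted p = 0.861).

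Among 11 MHC class II genes, H2-Eb2 was lower at 0.11 to 2.56 CPM in VQ and 10.6 and 12.98 in tVk12653 (log2 fold change -3.86 ± 0.77, adjusted p = 0.0153) and none was higher. The lines were unlike. The list summed to 3341 and 2632 CPM (D1), 2967 CPM (D4) and 11.2 and 20.5 CPM (D5). In tVk12653 the sum was 4120 and 5384 CPM, and in WT and V 3696 to 4655. Lower against tVk12653 were 3 in D1 (14.4% of all genes), 3 in D4 (11.8%) and 7 in D5 (24.3%). In D1 1 was higher (13.9% of all genes). Of 22 interferon-stimulated genes tested, 4 were higher (Gbp3, Ddx58, Bst2 and Xaf1) and none lower, with a median log2 fold change of 1.53, or 1.38 with the gene at 0 in tVk12653 set to its bound. For Gbp3, tVk12653 had 61.1 and 27.8 CPM, while D1 had 312 and 534, D4 212 and D5 242 and 242 CPM. Gbp3, a guanylate-binding protein gene, was 7.11-fold higher in VQ (log2 fold change 2.83 ± 0.55, adjusted p = 0.014). Ddx58, which encodes the RNA sensor RIG-I, lay at 39.8 to 64.3 CPM in VQ and 24.8 and 27.8 in tVk12653 (log2 fold change 1.00 ± 0.20, adjusted p = 0.0146), and Bst2, or tetherin, at 54.7 to 131 CPM in VQ and 34.0 and 42.5 in tVk12653 (log2 fold change 1.25 ± 0.32, adjusted p = 0.0373). None of these held with tVk12653 as 1 unit. By line against tVk12653, 11 of the interferon list were higher (13.9% of all genes) and 0 lower (14.4%) for D1. The counts were 4 (14.1%) and 1 (11.8%) for D4, and 6 (25.7%) and 4 (24.3%) for D5. Of 14 immune checkpoint genes, Cd48, a ligand of SLAM family receptors, was higher at 9.43 to 30.2 CPM in VQ and 2.31 and 2.52 in tVk12653 (log2 fold change 2.84 ± 0.54, adjusted p = 0.0131). Cd200, an inhibitory ligand, was called lower with no count in VQ and 0.46 and 1.08 CPM in tVk12653, which is at the floor, and it did not pass without any 1 of the VQ lines.

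**Figure D4:**
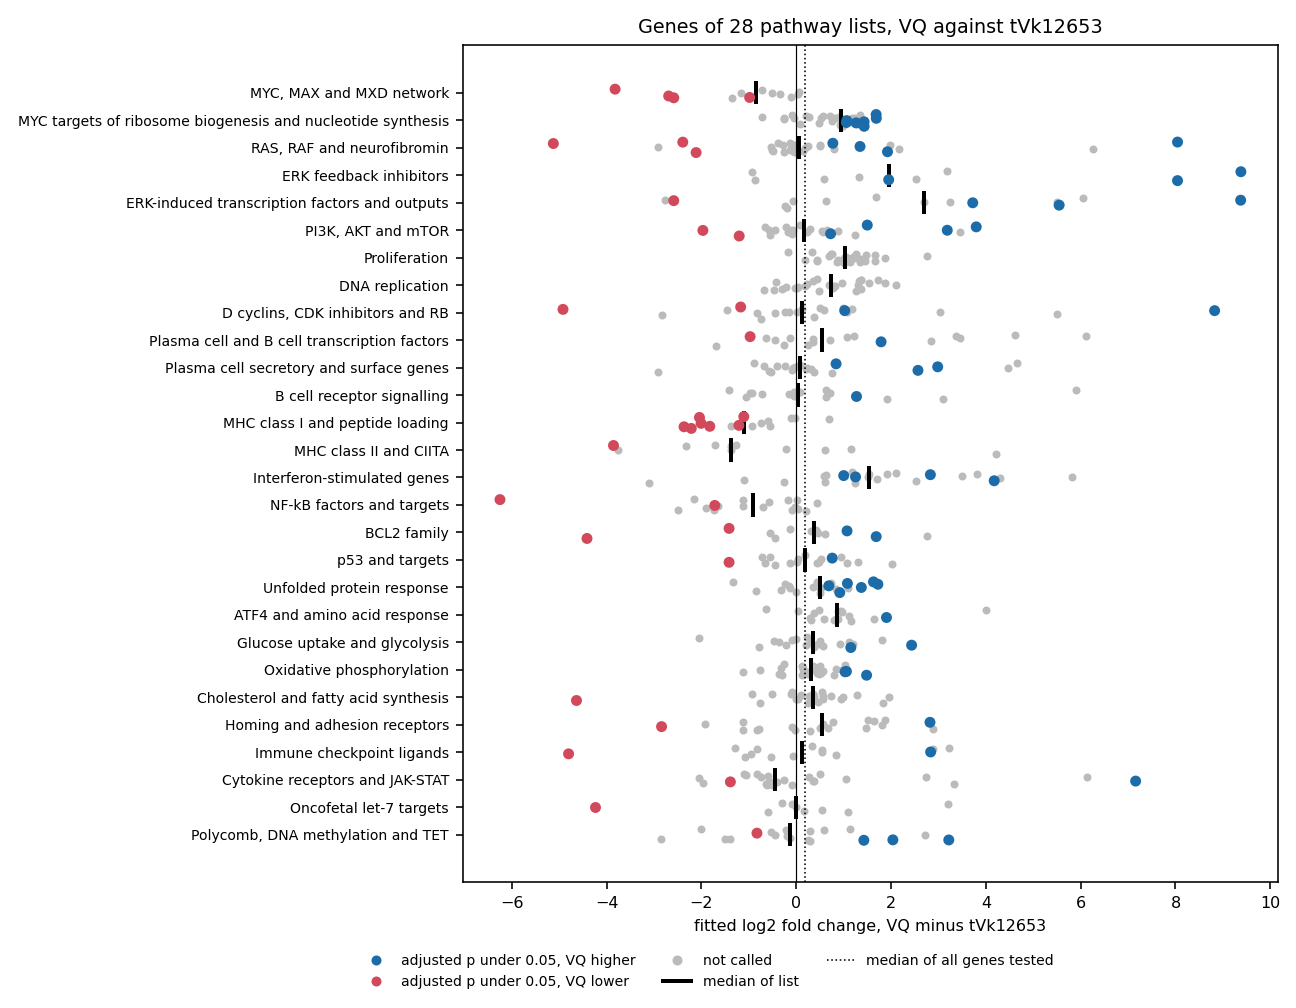
Fitted log2 fold change of VQ minus tVk12653 (x axis) for each tested gene of the 28 pathway lists (y axis), coloured where the adjusted p was under 0.05, with the median of each list (bar) and of all genes tested (dotted line). Fitted values of genes near 0 in 1 arm depend on the fit and are no bound. The MHC class I genes called lie left of 0 and the unfolded protein response genes called lie right of it.

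Survival genes of the BCL2 family split. Of 12 tested, 2 were higher (Bcl2l2 and Bak1) and 2 lower (Bcl2 and Bbc3). The levels of Bcl2 were 101 and 45.4 CPM (D1), 8.23 CPM (D4), 0.80 and 1.03 CPM (D5), and 639 and 407 CPM (tVk12653). BCL2 prevents release of cytochrome c from mitochondria, and its RNA was 21.3-fold lower in VQ (log2 fold change -4.41 ± 1.09, adjusted p = 0.0338), with D5 at the floor. Bbc3 had 74.6 and 53.8 CPM in the D1 libraries, 38.7 CPM in the D4 library, 19.8 and 22.6 CPM in the D5 libraries and 94.9 and 124 CPM in tVk12653. Bbc3 encodes the pro-death protein PUMA, a p53 target, and was 2.67-fold lower in VQ (log2 fold change -1.42 ± 0.37, adjusted p = 0.04). It lies on chromosome 7. Bcl2l2, which encodes BCL-W, lay at 53.5 to 62.7 CPM in VQ and 23.1 and 33.1 in tVk12653 (log2 fold change 1.07 ± 0.22, adjusted p = 0.0162), on chromosome 14. Mcl1, on which plasma cells depend, was among those that did not pass (509 to 704 CPM in VQ and 473 and 476 in tVk12653, log2 fold change 0.42 ± 0.19, adjusted p = 0.172). Bcl2l11, the gene of the pro-death protein BIM, ranged from 12.1 CPM in D1 to 174 in D5 (log2 fold change 2.75 ± 0.83, adjusted p = 0.0623). Of 17 p53 targets, Mdm2, the ubiquitin ligase of p53, was higher (132 to 194 CPM in VQ and 95.5 and 99.3 in tVk12653, log2 fold change 0.76 ± 0.19, adjusted p = 0.0333) and Bbc3 lower.

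In the PI3K, AKT and mTOR list of 24 genes, 4 were higher (Pik3ap1, Pik3cd, Akt1 and Eif4ebp1) and 2 lower (Pik3r1 and Inpp5d). Pik3ap1 levels came to 29.9 and 22.7 CPM (D1), 41.2 CPM (D4) and 11.7 and 13.1 CPM (D5), with tVk12653 at 2.78 and 0.72 CPM. Pik3ap1 encodes BCAP, an adaptor that brings PI3K to B cell receptors (log2 fold change 3.80 ± 0.61, adjusted p = 0.00705). For Pik3r1, tVk12653 had 628 and 1074 CPM, while D1 had 225 and 176, D4 338 and D5 117 and 115 CPM. Pik3r1 encodes the regulatory subunit p85-alpha (log2 fold change -1.97 ± 0.37, adjusted p = 0.0124). Inpp5d, the gene of the SHIP1 phosphatase, lay at 122 to 208 CPM in VQ and 285 and 532 in tVk12653 (log2 fold change -1.20 ± 0.26, adjusted p = 0.0191). Of 24 cytokine receptor and JAK-STAT genes, Jak1 was higher and Stat5a lower. The levels of Jak1 were 124 and 129.6 CPM (D1), 22.3 CPM (D4), 257 and 237 CPM (D5), and 1.62 and 0 CPM (tVk12653). JAK1 transmits signals of interleukin 6 and interferon receptors, and its RNA was near 0 in tVk12653 (log2 fold change 7.16 ± 1.21, adjusted p = 0.00874), against 164 to 303 CPM in WT and V. Stat5a lay at 13.2 to 33.0 CPM in VQ and 57.4 and 76.8 in tVk12653 (log2 fold change -1.39 ± 0.36, adjusted p = 0.0396). None of the calls of these 2 lists held with tVk12653 as 1 unit.

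In adhesion and metabolism few genes of each list passed. Of 20 homing receptors, Itgb2, the beta-2 integrin chain, was higher at 32.0 to 205 CPM in VQ and 14.6 and 20.2 in tVk12653 (log2 fold change 2.82 ± 0.55, adjusted p = 0.014) and Itgb7, the beta-7 chain, lower at 3.26 to 17.9 CPM in VQ and 52.8 and 64.9 in tVk12653 (log2 fold change -2.84 ± 0.50, adjusted p = 0.0096). Of 28 oxidative phosphorylation genes, 3 were higher (Uqcrc1, Atp5b and Cyc1). Uqcrc1 had 213 and 208 CPM in the D1 libraries, 241 CPM in the D4 library, 251 and 270.4 CPM in the D5 libraries and 86.3 and 87.9 CPM in tVk12653. UQCRC1 is a core subunit of respiratory complex III (log2 fold change 1.48 ± 0.16, adjusted p = 0.00103), and its call held with tVk12653 as 1 unit. Of 20 glycolysis genes, Eno1 (log2 fold change 2.43 ± 0.59, adjusted p = 0.0304) and Pfkl (log2 fold change 1.15 ± 0.30, adjusted p = 0.0392) were higher. Psat1, of serine synthesis, was the only 1 of 18 amino acid response genes to pass, at 168 to 217 CPM in VQ and 51.2 and 57.2 in tVk12653 (log2 fold change 1.89 ± 0.29, adjusted p = 0.00581). The median of that list was 0.86. At an unadjusted p under 0.05, 7 were higher (18.1% of all genes) and 0 lower (11%), and DESeq2 called 3 and 0. Against tVk12653, 6 were higher (13.9% of all genes) and 1 lower (14.4%) in D1. The counts were 11 (14.1%) and 0 (11.8%) in D4, and 5 (25.7%) and 5 (24.3%) in D5. Of 23 cholesterol and fatty acid genes, Scd1, a fatty acid desaturase gene, was lower, a call that held with tVk12653 as 1 unit, but its 2 tVk12653 libraries stood at 45.8 and 5.05 CPM and D1 reached 5.12 CPM. Of 9 oncofetal let-7 targets, Igf2bp2, an RNA-binding protein gene, was lower at 0 to 1.84 CPM in VQ and 17.4 and 19.5 in tVk12653 (log2 fold change -4.24 ± 0.75, adjusted p = 0.0103). Among 19 genes of Polycomb, DNA methylation and TET enzymes, Bmi1, Dnmt3a and Dnmt3b were higher and Eed was lower. Bmi1 levels came to 260.2 and 298 CPM (D1), 179.5 CPM (D4) and 843 and 782 CPM (D5), with tVk12653 at 47.4 and 48.3 CPM. BMI1 is a subunit of Polycomb repressive complex 1 (log2 fold change 3.22 ± 0.60, adjusted p = 0.0128), and Eed, of complex 2, lay at 45.1 to 67.3 CPM in VQ and 101 in both tVk12653 libraries (log2 fold change -0.83 ± 0.19, adjusted p = 0.0265). Eed lies on chromosome 7, whose median against tVk12653 was also below that of all genes in each line.

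Each VQ line was then set against tVk12653 over single libraries, where the spread is that between recipients or mice of 1 group and no test of genotype. The 3 comparisons share the tVk12653 libraries, and D4, with 1 library, is assumed to vary like the other groups. Of 12835 genes, 1782 (13.9%) were higher and 1854 (14.4%) lower in D1, 1806 (14.1%) and 1510 (11.8%) in D4, and 3301 (25.7%) and 3119 (24.3%) in D5. The lines differed among themselves in 6592 genes (51.4%, F test), including 592 of the 1212 genes called between the arms (48.8%). Etv5 was higher than in tVk12653 in each line, by a log2 fold change of 2.54 ± 0.32 (D1), 3.17 ± 0.35 (D4) and 4.60 ± 0.32 (D5). For Nras, which passed in D5 and not in D1 or D4, the log2 fold change was -0.22 ± 0.17 (D1), 0.23 ± 0.20 (D4) and 1.55 ± 0.17 (D5) (F test adjusted p = 2.57e-06). Map3k14 was lower in each line, at -6.05 ± 0.24 (D1), -6.66 ± 0.34 (D4) and -6.25 ± 0.25 (D5). Myc was also lower in each, at -3.35 ± 0.28 (D1), -2.30 ± 0.35 (D4) and -2.43 ± 0.27 (D5).

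The genes that most clearly separated the VQ lines among those called between the arms were Gimap4, Enpp3, Nuggc, Fut4 and Spred1. For Gimap4, tVk12653 had 0.46 and 0 CPM, while D1 had 14.0 and 10.3, D4 5.68 and D5 199 and 216 CPM. Gimap4 encodes a GTPase of lymphocytes, and its D5 level stood far above the other lines (F test adjusted p = 9.62e-09). The levels of Enpp3 were 196 and 182 CPM (D1), 0 CPM (D4), 245 and 221 CPM (D5), and 0.23 and 0 CPM (tVk12653). Enpp3, an ectonucleotidase gene, was absent from D4 (F test adjusted p = 3.15e-08). Nuggc had 1.89 and 1.77 CPM in the D1 libraries, 61.6 CPM in the D4 library, 205 and 205 CPM in the D5 libraries and 1.62 and 1.08 CPM in tVk12653. Nuggc, a nuclear GTPase gene of germinal centre B cells, was low in D1 as in tVk12653 (F test adjusted p = 3.15e-08). Fut4, a fucosyltransferase gene, stood at 2.15 and 2.65 CPM (D1), 45.7 CPM (D4) and 150.0 and 160.2 CPM (D5). The arm-level calls of Enpp3 and Nuggc thus rested on 2 of the 3 lines, and neither passed with relative log expression scaling.

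**Figure D5:**
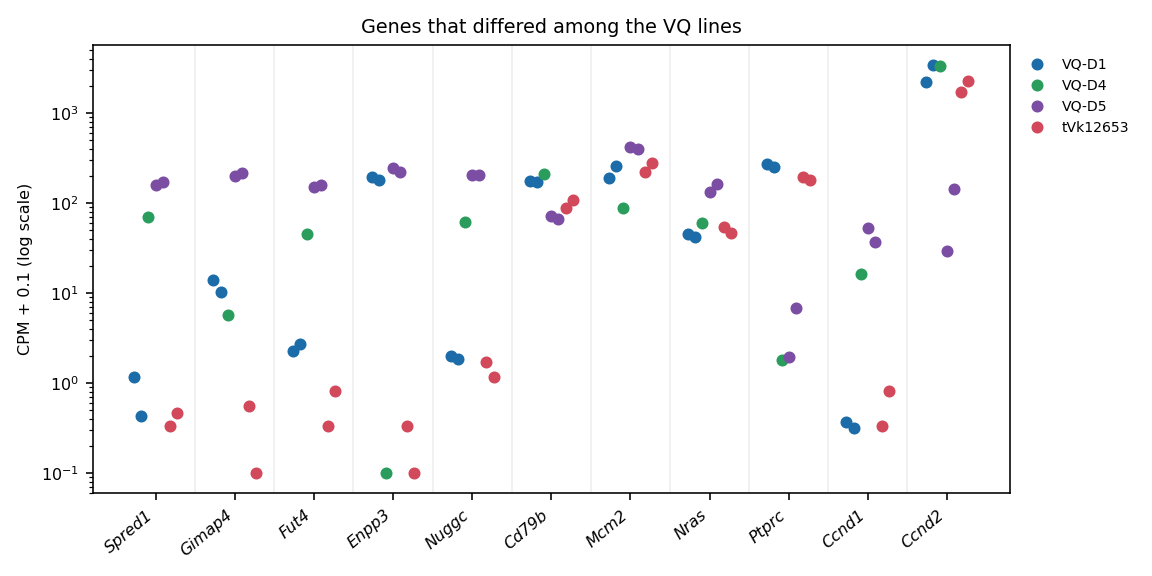
CPM on a log scale (y axis, a small constant added) of 11 genes (x axis) in the 7 libraries, coloured by line, all with an F test among D1, D4 and D5 at an adjusted p under 0.05. Spred1 and Nuggc are near the tVk12653 level in D1 only, Enpp3 in D4 only, and Nras is highest in D5.

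Markers of other cell types were unevenly present. Summed over 15 neutrophil markers, the level was 1343 and 408 CPM (D1), 82.9 CPM (D4), 95.6 and 150.2 CPM (D5), and 168 and 97.3 CPM (tVk12653), against 1907 to 9836 in WT and V, and none of the 15 passed. Of 12 monocyte and macrophage markers none passed, and the sum was 674 to 1653 CPM in D1, D4 and tVk12653, within the 553 to 1728 of WT and V, and 22.4 and 47.7 in D5, where Ly6c2, a gene that plasma cells also express, stood at 2.40 and 22.3 CPM against 501 to 1557 in the other tumour libraries. Of 5 stromal and endothelial markers, Pecam1 and Lepr were higher, and the sum over the list was 439 and 161 CPM (D1), 54.9 CPM (D4), 49.1 and 40.8 CPM (D5), and 16.4 and 15.5 CPM (tVk12653), against 67.6 to 133 in WT and V, so that both D1 libraries were above that range and the other tumour libraries below it, while Cdh5, which defines endothelium, was at most 1.35 CPM. Bank1 was lower among 12 B cell markers tested (log2 fold change -3.04 ± 0.49, adjusted p = 0.00705), with tVk12653 as 1 unit too. Bst2, counted above among interferon genes, was higher among 8 dendritic cell markers, whose sum was 322 to 945 CPM in VQ and 1094 and 1278 in tVk12653, against 655 to 969 in WT and V. None of the 8 T and NK cell, 10 erythroid, 3 megakaryocyte and 4 basophil markers tested passed, and Cd3e was at most 1.89 CPM. Plasma cell markers summed to 6431 to 9993 CPM in VQ and to 11100 and 14100 in tVk12653. Fewer cells of a type and less RNA per cell cannot be told apart in bulk samples, and the part of other cells in the results above was not tested. Of the sex-linked genes none passed, Xist lay at 3.24 to 97.9 CPM and the Y-linked genes at most at 0.72 CPM in the 7 libraries.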

How the data were processed

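Each library came from 50000 sorted bone marrow cells, whose RNA (RNeasy Micro kit) went into SMARTer stranded total RNA libraries, per the labels. STAR 2.6.1d and the build GRCm38.p6 are named in the submitters' processing notes. Not given in the sources used here are the annotation, the tool and strand setting of counting, and the treatment of reads that align more than once, so reads of overlapping or near-identical genes cannot be apportioned. The authors deposited raw counts per gene symbol (22997 symbols, of which 22000 matched RefSeq).

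Genes were kept by filterByExpr (at least 10 counts in a library of median size, 15 in all), scaled with TMM and tested with edgeR 4.0.16 quasi-likelihood fits (robust, R 4.3.3). P-values were adjusted by Benjamini-Hochberg over the genes of a fit, with a threshold of 0.05. The comparison of arms had 11 units (3 WT, 3 V, 2 tVk12653 libraries and the 3 VQ lines with recipients summed) and 7 residual degrees of freedom. Lines were compared over all 13 libraries with 1 mean per group. The biological coefficient of variation was 0.409 and 0.195. The fits were also run on simulated counts with known changes, drawn independently for each unit or library. Such counts cannot test the entry of 1 tVk12653 line as 2 units.

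The members and the 28 pathway and 11 marker lists were chosen with earlier results of these data known. Genes named were the 10 largest fitted log2 fold changes per direction (8 CPM or more in the higher arm, libraries not overlapping, no predicted, ribosomal protein, histone, mitochondrial, small RNA, sex-linked or marker genes), up to 3 per list by p (where none passed, the 2 most abundant), a set of engineered, RAS, ERK, cyclin, plasma cell, sex-linked and marker genes, and the 5 called genes that most differed among lines. Others were picked after their values were seen. The histone exclusion went by name and also removed MHC genes whose symbols begin with H2- from the largest changes and the line differences. A gene without a count in an arm has a fold bound against 3 counts per library, and 1 to 3 counts in all have an exact Poisson interval at 95%. Both cover counting error only. Recipients of 1 line differed by a chi-square of 4.97 to 11.9 per degree of freedom, against about 1 for counting error. Alternatives were DESeq2 1.42.0, other scaling, filters, units and arms, a replicate block, a 2-fold test, removal of the 20 most abundant or of X and Y genes, and leaving out each library or line. Values of some genes that the naming rule or the lists hold are not reported here.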

Additional observations from a re-analysis of the deposited data

Results flagged for a closer look

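Of the 131 named genes tested, 82 (62.6%) differed among the VQ lines D1, D4 and D5 by the F test at an adjusted p under 0.05, against 51.4% of all genes, so that 1 value for the VQ arm covers unlike lines. For 2 of them lines lay on opposite sides of tVk12653 with both directions called. Cd79b, a chain of the B cell receptor, was higher than in tVk12653 in D1 (log2 fold change 0.80) and D4 (1.06) and lower in D5 (-0.53), with an adjusted p of 1.35e-05 for the difference among the lines. Mcm2, a subunit of the replicative helicase, was lower in D4 (-1.54) and higher in D5 (0.71), and its value in D1 (-0.19) was not called, with an adjusted p of 5.26e-05. The genes with the smallest p for a difference among the lines, of those called between the arms, were Gimap4 (adjusted p = 9.62e-09), Enpp3 (3.15e-08), Nuggc (3.15e-08), Fut4 (3.91e-08) and Spred1 (4e-08).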

How the results depend on the processing

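Against 712 genes higher and 500 lower in VQ, relative log expression factors gave 579 and 563, no count filter 496 and 382, a minimum count of 30 gave 700 and 523, and removal of the 20 most abundant or of X and Y genes 702 and 508, and 713 and 499. DESeq2 called 1190 and 931. Units mattered most: tVk12653 as 1 unit gave 51 and 102, VQ and tVk12653 units alone 7 and 19, all libraries with a mean per arm 838 and 779, and all libraries with a mean per group 2319 and 2709. A test against a 2-fold change left 73 and 100. Leaving out 1 library or line gave 49 to 1177 higher and 89 to 867 lower, the lowest without a tVk12653 recipient and the highest without line D4 or D1. No gene called between the arms reversed its sign under these alternatives.

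Replicate numbers are shared between groups, but same-numbered libraries of D1, D5 and tVk12653 did not deviate together (r = -0.042, 0.0075 and 0.013), so the numbers were not taken as pairs. A fit with a replicate block and a mean per group called 2389 higher and 2695 lower.

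For single lines against tVk12653 the counts stayed within 1.5 times under the alternatives run, except D1. There 1782 higher and 1854 lower became 1131 to 1627 and 1088 to 1751 when 1 library was left out, with 1166 and 1131 higher without recipient 1 or 2 of tVk12653 and 1088 lower without recipient 2 of D1.

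Among named genes and settings, 2962 comparisons kept their side of the threshold, 489 lost and 42 gained a call. Of 56 list counts 37 were above 0, and 11 were with tVk12653 as 1 unit. A floor of 3 counts, 0.331 to 1.08 CPM, limits genes at or near 0, and D4 rests on 1 library.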

Other observations

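Beside Rb1, Dnajc15, Egr1, Gng12 and Kif19a, 8 more of the 13 genes with at most 3 counts in tVk12653 and over 10 CPM in every other library of the series, picked after the values were seen, were Cers6, Crim1, Ets2, Rftn1, Slc36a4, St6gal1, Vamp7 and the mitochondrial gene ND3. They lie on several chromosomes. Cers6, a ceramide synthase gene, stood at 65.2 to 155 CPM in VQ, 89.5 to 132 in WT and V and 2 counts in tVk12653. Crim1, a transmembrane protein gene that binds growth factors, stood at 82.9 to 175 CPM in VQ with 1 count in tVk12653. St6gal1, the sialyltransferase that caps antibody and other glycans, ranged in VQ from 21.8 CPM in D1 to 925 in D5 and was at 847 to 1633 CPM in WT and V, with 3 counts in tVk12653. Ets2, an ETS transcription factor gene, stood at 49.7 to 137 CPM in VQ with 3 counts in tVk12653. Vamp7, a vesicle fusion protein gene, stood at 25.6 to 45.5 CPM in VQ with 2 counts in tVk12653. ND3, a subunit of respiratory complex I, stood at 14.5 to 25.4 CPM in VQ with 1 count in tVk12653, although mitochondrial genes as a whole held 1.85 and 2.49% of the tVk12653 counts.

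In the other direction, 11 genes had at most 3 counts over the 5 VQ libraries and over 10 CPM in both tVk12653 libraries. The most abundant was H2-M10.1, a class Ib heavy chain gene, at 459.5 and 430.4 CPM in tVk12653, 2.57 to 61.1 in WT and V and 3 counts in VQ. Read assignment among near-identical heavy chain genes is uncertain. Hoxd8, a homeobox gene, stood at 12.7 and 10.8 CPM in tVk12653 with 2 counts in VQ.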
